A study of Mus musculus with 9 samples.

Results

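Atf4 and 9 genes that it is known to control or to act with (Atf5, Ddit3, Cebpb, Asns, Chac1, Vldlr, Trib3, Sesn2 and Ddit4) were followed in pancreatic islets that lacked Raptor in beta cells. The 10 genes were taken by symbol from the 18193 genes that had at least 1 probe set paired with a single gene, and all 10 were bright enough to be tested. The tested mice were βRapKO males (Raptor flox/flox with RIP-Cre, in which a rat insulin promoter drives Cre), which lose in beta cells the protein that defines mTOR complex 1 (mTORC1). The WT mice were male littermates that carried the same floxed Raptor alleles without Cre, so Cre itself went with the deletion and its own effect cannot be told apart from it. The sample labels give C57BL/6 for all animals, whereas the study's methods describe the parental Cre line as being of mixed strain. All mice were 8 weeks old. RNA came from 4 βRapKO pools and 5 WT pools of hand-picked islets, each pool of 5 animals of 1 genotype, and each pool was hybridised to 1 Affymetrix Mouse Genome 430 2.0 array.

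Atf4 encodes a basic leucine zipper (bZIP) transcription factor at the centre of the integrated stress response. Amino acid shortage, unfolded protein in the endoplasmic reticulum or lack of haem activates kinases that phosphorylate eIF2α, which lowers general protein synthesis while translation of Atf4 goes up. ATF4 then raises genes of amino acid synthesis and transport, tRNA charging, redox balance and, when stress persists, cell death. Because ATF4 is set largely by translation, its mRNA is only a partial measure of its activity, and no protein was measured here. In mouse fibroblasts mTORC1 also raises ATF4 without eIF2α phosphorylation, and beta cells, which make large amounts of proinsulin, are known to be sensitive to a failure of this response.

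ATF4 pairs with C/EBP proteins on a composite element written here as TGATGNAA, and short stretches around each match are shown because 4 of the 10 genes had one near a start site. Promoter windows from 250 bases before to 50 bases after each start were taken from RefSeq (GRCm38.p6), 12 windows for the 10 genes, and both strands were searched. The element was present in at least 1 window of 4 of the 10 genes (40.0%), against 1219 of 27025 genes of the same table (4.51%) and 310 of the 10990 tested genes with a window (2.82%). The genes were picked as known ATF4 targets, so this share describes the choice. The 30 bases around each match are printed 5′ to 3′ on the strand that reads TGATGNAA, with the element in capitals. They lay at chr6:7693214-7693243 on the minus strand for Asns, chr2:119351038-119351067 on the minus strand for Chac1, chr2:152344028-152344057 on the plus strand for Trib3 and chr19:27216809-27216838 on the minus strand for Vldlr.
Asns: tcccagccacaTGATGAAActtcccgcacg
Chac1: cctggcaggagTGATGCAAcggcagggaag
Trib3: ccccgcccggcTGATGTAAacctgagctaa
Vldlr: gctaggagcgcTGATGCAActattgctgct

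Counted from the start site, the element spanned bases -23 to -16 in Asns, -193 to -186 in Chac1, 15 to 22 in Trib3 and -200 to -193 in Vldlr. In Chac1, Trib3 and Vldlr it stood on the strand opposite to the gene. The Vldlr match belonged to the second of 2 annotated starts, 536 bases downstream of the first. Chac1 and Vldlr shared the same 8 letters, whereas Asns and Trib3 each differed from them at the free position. The windows of Atf4, Atf5, Ddit3, Cebpb, Sesn2 and Ddit4 did not hold these letters. The 250 bases upstream of Asns (chr6:7693210-7693459, minus strand) and Chac1 (chr2:119350992-119351241, plus strand) are shown on the gene's own strand for context, with the element or its reverse complement in capitals.
Asns upstream: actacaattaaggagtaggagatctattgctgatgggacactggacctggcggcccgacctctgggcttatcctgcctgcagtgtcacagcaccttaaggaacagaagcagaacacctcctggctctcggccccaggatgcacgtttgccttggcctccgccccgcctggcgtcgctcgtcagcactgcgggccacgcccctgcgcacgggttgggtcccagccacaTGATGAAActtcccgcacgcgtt
Chac1 upstream: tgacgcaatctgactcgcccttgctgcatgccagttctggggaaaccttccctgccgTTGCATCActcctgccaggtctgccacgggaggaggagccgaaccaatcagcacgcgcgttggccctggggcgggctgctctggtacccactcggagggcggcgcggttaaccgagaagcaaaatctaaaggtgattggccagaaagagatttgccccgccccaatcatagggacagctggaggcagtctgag

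Of the 10 genes, 9 had a lower mean in βRapKO islets than in WT islets, and the median difference was -0.34 on the log2 scale. Over all 13644 genes tested the median difference was 0.04, and 5976 genes (43.8%) were lower on average. Atf5 and Vldlr fell past the threshold (limma, Benjamini-Hochberg adjusted over all genes tested, two-sided, adjusted p under 0.05) and none rose, against 2.63% of all genes that fell (359), 3.67% that rose (501) and 6.30% called in either direction. At an unadjusted p under 0.05, 5 of the 10 genes were lower, against 8.43% of all genes. In 4 genes (Atf5, Vldlr, Trib3 and Asns) every βRapKO pool lay below every WT pool, against 5.05% of all genes, and none lay wholly above, against 7.43% of all genes. The 10 genes were chosen with earlier results of these data known, so these comparisons with all genes may in part describe the choice. With each array centred on its median, the calls over all genes were 214 higher and 260 lower. When each array was centred on its median or the arrays were quantile normalized, 9 of the 10 were again lower, whereas averaging all probe sets of a gene made it 10.

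**Figure D1:**
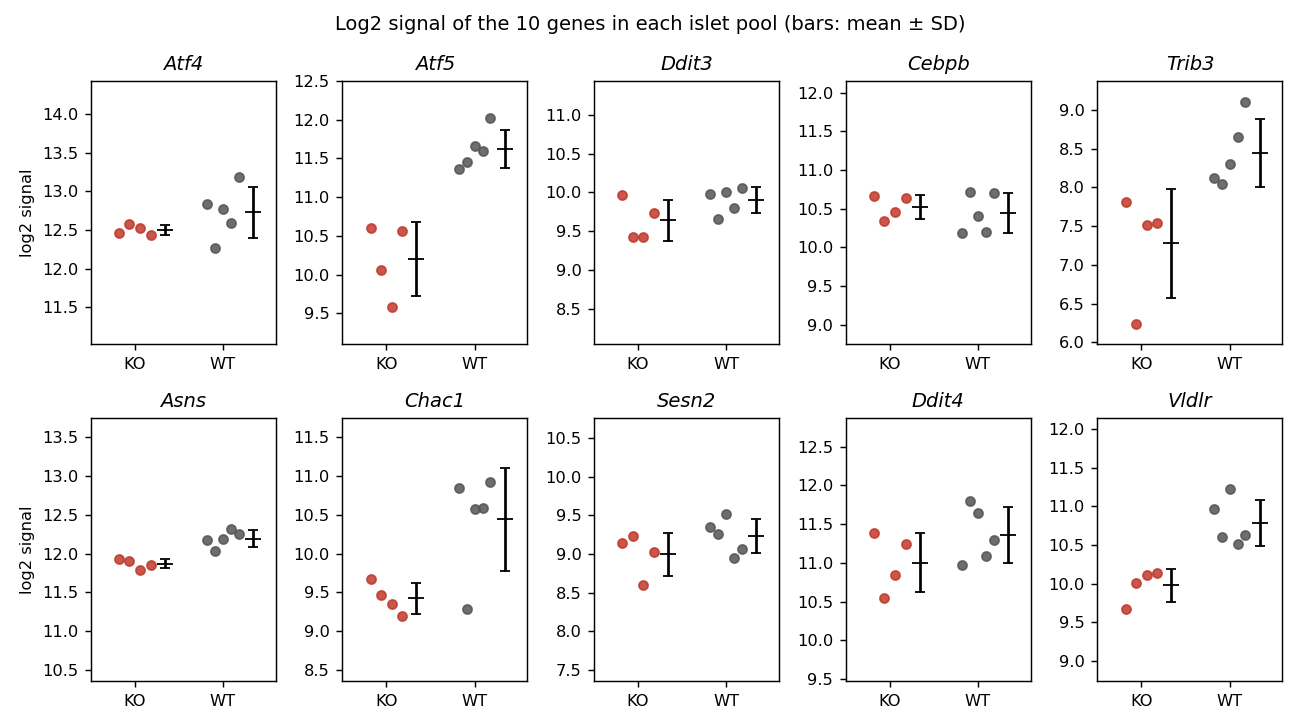
Log2 signal of the brightest probe set of each gene (y axis, the same span in every panel) in the 4 βRapKO pools (red, left) and 5 WT pools (grey, right), with mean ± SD in black. The groups do not overlap in Atf5, Trib3, Asns and Vldlr, and in Chac1 a single WT pool, at 9.29, lies among the βRapKO pools.

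The array check of the genotype and the cell content of the pools bear on every value. The brightest Rptor probe set read 8.59, 8.48, 9.21 and 8.73 in βRapKO pools, against 9.53, 9.59, 9.71, 9.22 and 9.30 in WT pools, so it was lower without overlap, although by little in 1 pool. The other 2 Rptor probe sets were dim and overlapped between the groups, with means of 5.17 in βRapKO and 5.58 in WT for 1 and of 4.50 in βRapKO and 3.85 in WT for the other. The mean log2 signal of 6 beta cell markers ran between 13.57 and 13.70 in βRapKO pools and between 14.15 and 14.35 in WT pools. Slc2a2 (-1.33), Nkx6-1 (-0.95) and Ucn3 (-0.85) carried most of that difference, whereas the hormone genes Ins2 (-0.05) and Iapp (-0.12) overlapped between the groups and did not pass the test. Iapp (means 15.23 in βRapKO and 15.35 in WT) lay close to the highest signals of the arrays (15.16 to 15.56), where a change may not show. Ins2 (14.10 and 14.15) lay somewhat below that. Markers of other cells went the other way: 10 stromal genes averaged between 9.96 and 10.64 in βRapKO pools and between 8.49 and 9.58 in WT pools, with 6 of the 10 called higher. The means of 3 delta cell, 3 ductal and 8 endothelial markers were also higher in βRapKO pools without overlap, although the delta cell hormone gene Sst overlapped (-0.04). None of the ductal or endothelial markers was called on its own. The largest ductal difference was that of the dim Krt19 (means 6.78 in βRapKO and 4.81 in WT), whereas the bright Krt7 overlapped (0.11). Among the endothelial markers 7 had a higher mean and Flt1 a lower one (-0.15). The means of alpha cell, macrophage, Schwann cell and acinar markers overlapped. Like Iapp, Sst lay close to the highest signals (means 15.17 in βRapKO and 15.21 in WT). Acinar markers were the most variable, between 8.82 and 13.96 in βRapKO pools and between 9.47 and 13.92 in WT pools. The means of the beta, alpha and delta cell markers lay between 12.38 and 14.35 in every pool, so the defining markers of islets were present. In such bulk samples fewer cells of a type and less RNA per cell cannot be told apart, and the part of cell content in the differences described here was not tested.

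Atf4 mRNA itself did not pass the test. It read 12.46, 12.58, 12.52 and 12.44 in βRapKO pools, against 12.84, 12.27, 12.77, 12.59 and 13.18 in WT pools. The βRapKO pools lay close together and the WT pools on both sides of them. The means were 12.50 ± 0.07 (SD, n = 4) in βRapKO and 12.73 ± 0.33 (SD, n = 5) in WT, a difference of -0.23 (95% interval -0.60 to 0.15, limma adjusted p = 0.477). The second Atf4 probe set gave -0.14, again with overlap, and the third, which was dim and scattered between 2.78 and 6.12, gave -0.81 with a standard error of 0.87. The interval spans 0 and its lower end reaches past the difference of Asns given below.

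Atf5, which encodes a bZIP factor whose translation is controlled by upstream reading frames as that of Atf4 is, and which promotes survival of stressed mouse beta cells, had the largest difference of the 10. Its signal was 10.60, 10.06, 9.58 and 10.56 in βRapKO pools, against 11.37, 11.46, 11.66, 11.60 and 12.02 in WT pools. The highest βRapKO pool was well below the lowest WT pool. Atf5 averaged 10.20 ± 0.48 (SD, n = 4) in βRapKO and 11.62 ± 0.25 (SD, n = 5) in WT, 2.67-fold lower in βRapKO (log2 difference -1.42 ± 0.23 SE, 95% interval -1.93 to -0.91, limma adjusted p = 0.00897). It remained called without any single pool, with adjusted p between 0.0165 and 0.0313.

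The other partners of ATF4 did not pass the test. Ddit3 encodes CHOP, the stress factor linked to cell death, and read 9.97, 9.42, 9.42 and 9.74 in βRapKO pools, against 9.98, 9.66, 10.00, 9.80 and 10.06 in WT pools. KO 1 and KO 4 fell within the WT range and the other two pools below it. The difference was -0.26 ± 0.14 SE (limma adjusted p = 0.330), and the dim second probe set of Ddit3 gave 0.24 with overlap. Cebpb, a C/EBP factor that dimerises with ATF4 and CHOP, was the only member with a higher mean. Its signal was 10.66, 10.34, 10.46 and 10.64 in βRapKO pools, against 10.19, 10.71, 10.40, 10.20 and 10.70 in WT pools. The βRapKO pools lay inside the WT range, and the difference of 0.08 ± 0.14 SE (limma adjusted p = 0.802) turned to -0.03 when its probe sets were averaged.

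**Figure D2:**
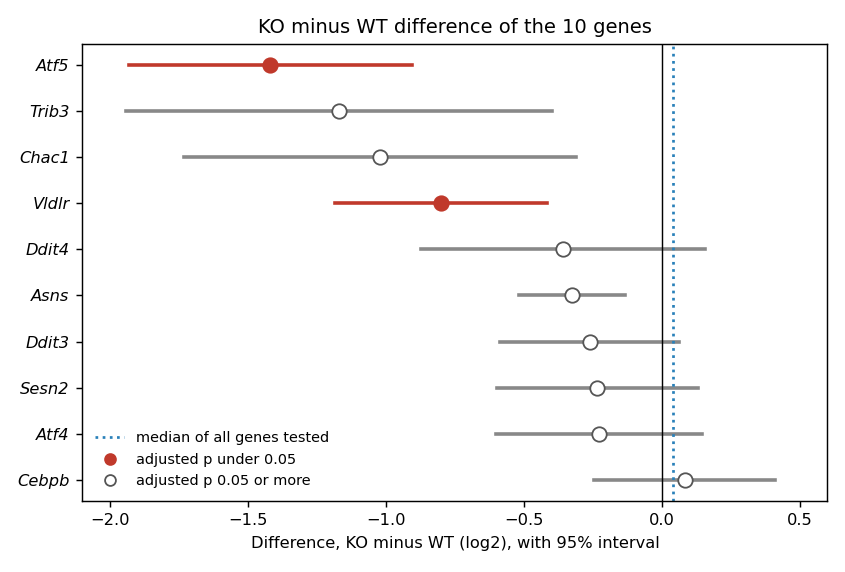
Difference between the mean βRapKO and mean WT log2 signal (x axis) for each gene, with its 95% interval; filled red points passed an adjusted p of 0.05 and the dotted line marks the median of all genes tested (0.04). The intervals of Atf5, Trib3, Chac1, Vldlr and Asns lie wholly below 0, and that of Cebpb, at 0.08, is centred above it.

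Among genes that ATF4 is known to raise, Vldlr passed the test, and Chac1 and Asns did not. Vldlr, the very low density lipoprotein receptor, takes up apolipoprotein E-rich particles and binds reelin. Its brightest probe set read 9.67, 10.01, 10.11 and 10.14 in βRapKO pools, against 10.96, 10.60, 11.22, 10.51 and 10.63 in WT pools. All βRapKO pools were below all WT pools, with the lowest value in KO 1. Vldlr averaged 9.98 ± 0.21 (SD, n = 4) in βRapKO and 10.78 ± 0.30 (SD, n = 5) in WT, 1.74-fold lower in βRapKO (log2 difference -0.80 ± 0.17 SE, limma adjusted p = 0.0291). The call was lost without KO 1 (adjusted p = 0.0839), KO 2 (0.0679), KO 3 (0.0629), KO 4 (0.0541) or WT 1 (0.0676), and also without the filter on dim genes (0.0587) or with the methods' t-test (0.0509). The brightest Vldlr probe set carries the suffix _x_at, which marks probes that may also bind other transcripts. Without such probe sets Vldlr was read from another one, at -0.82 (limma adjusted p = 0.0361).

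Vldlr had 6 probe sets, which gave separate readings of the same RNA. All 6 were lower in βRapKO islets, with differences between -0.53 and -1.15, and 3 of them showed no overlap. The largest Vldlr difference came from a dimmer probe set, which read 6.67, 6.75, 7.38 and 6.48 in βRapKO pools, against 7.92, 8.14, 7.85, 7.92 and 7.99 in WT pools. The WT pools were tight and each βRapKO pool lay below them. In a limma fit over all 34945 single-gene probe sets it was called at an adjusted p of 0.0341, in a fit that called 0.970% of probe sets. The brightest Vldlr probe set did not pass in that fit (limma adjusted p = 0.104), and nor did the remaining ones (0.121 to 0.348).

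Asns encodes asparagine synthetase, which makes asparagine from aspartate and glutamine and is a classic readout of amino acid shortage. It read 11.93, 11.90, 11.79 and 11.85 in βRapKO pools, against 12.18, 12.03, 12.19, 12.32 and 12.25 in WT pools. The gap between the groups was narrow, but so was the scatter within each. Asns averaged 11.87 ± 0.06 (SD, n = 4) in βRapKO and 12.19 ± 0.11 (SD, n = 5) in WT, a difference of -0.33 (95% interval -0.52 to -0.13, limma adjusted p = 0.0571). Its second probe set gave -0.21 with overlap. Asns passed the threshold when 0.5 of the genes in place of 0.25 were left out as dim (adjusted p = 0.0317), with an intensity trend in the variance (0.0166) and with the methods' t-test (0.0310). These were 3 of 19 alternatives. Asns did not pass when any single pool was left out (limma adjusted p from 0.0506 to 0.143). Nor did it with probe sets averaged (0.267) or under either other scaling (0.0768 and 0.142).

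Chac1 encodes a γ-glutamylcyclotransferase that breaks down glutathione and is induced downstream of ATF4 and CHOP. It read 9.67, 9.47, 9.35 and 9.19 in βRapKO pools, against 10.85, 9.29, 10.57, 10.59 and 10.92 in WT pools. The groups were apart except for WT 2, which lay with the βRapKO pools. Chac1 averaged 9.42 ± 0.20 (SD, n = 4) in βRapKO and 10.44 ± 0.66 (SD, n = 5) in WT, a difference of -1.02 (95% interval -1.73 to -0.31, limma adjusted p = 0.0922). Without WT 2 the difference was -1.31 and the limma adjusted p 0.00335. WT 2 was the WT pool that overlapped, so leaving it out was bound to widen the difference. When any other single pool was left out, Chac1 did not pass (adjusted p from 0.149 to 0.187). With all 9 arrays Chac1 also passed when 0.5 of the genes were left out as dim (adjusted p = 0.0381) and with an intensity trend in the variance (0.0274). It passed in 3 of 19 alternatives, and not under either other scaling (0.0972 and 0.121) or with the methods' t-test (0.147). WT 2 was not low throughout: it had the lowest WT signal in 5 of the 10 genes and the highest in 2 (Ddit4 and Cebpb).

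The remaining 3 genes feed back on the response or on mTORC1. Trib3 encodes a pseudokinase that is raised by ATF4 and CHOP and in turn restrains them. Its brightest probe set read 7.81, 6.24, 7.51 and 7.54 in βRapKO pools, against 8.12, 8.05, 8.30, 8.65 and 9.11 in WT pools. The groups did not overlap, with KO 2 far below the other βRapKO pools. Trib3 averaged 7.28 ± 0.71 (SD, n = 4) in βRapKO and 8.45 ± 0.44 (SD, n = 5) in WT, a difference of -1.17 (95% interval -1.94 to -0.40, limma adjusted p = 0.0801). The other probe set of Trib3 gave only -0.19 with overlap, and the brightest one carries the suffix _x_at, which marks probes that may also bind other transcripts. Trib3 passed with an intensity trend in the variance (adjusted p = 0.0302), the only 1 of its 18 alternatives in which it did. The 2 readings of Trib3 therefore disagree, and its level is uncertain.

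Sesn2 encodes sestrin 2, a leucine sensor that holds mTORC1 back through GATOR2. It read 9.14, 9.23, 8.60 and 9.02 in βRapKO pools, against 9.35, 9.26, 9.52, 8.95 and 9.07 in WT pools. Only KO 3 lay below the WT range. The difference was -0.23 ± 0.16 SE (limma adjusted p = 0.451), and the second probe set of Sesn2 gave -0.24. Ddit4 encodes REDD1, which restrains mTORC1 through TSC2 under low oxygen or energy. Its signal was 11.39, 10.55, 10.84 and 11.24 in βRapKO pools, against 10.97, 11.80, 11.65, 11.09 and 11.30 in WT pools. KO 2 and KO 3 lay below the WT range and the others inside it, and the difference was -0.36 ± 0.23 SE (limma adjusted p = 0.408).

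**Figure D3:**
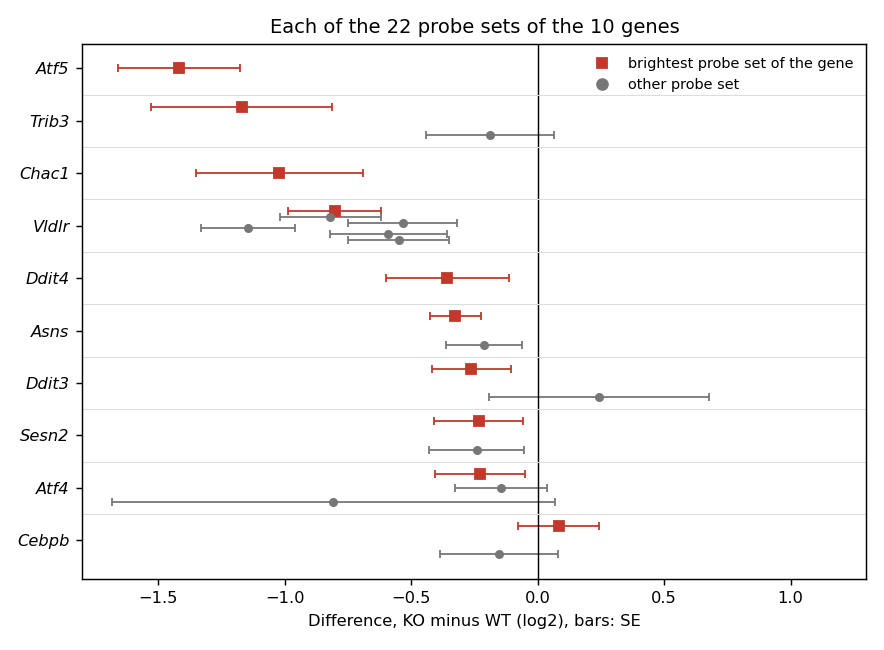
Difference between mean βRapKO and mean WT log2 signal (x axis, bars are the SE from a limma fit over probe sets) for every probe set of each gene, with the brightest as a red square. Of the 22 probe sets, 20 lie below 0, among them all 6 of Vldlr; the 2 readings of Trib3 lie far apart, at -1.17 and -0.19.

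Across the 22 probe sets of the 10 genes, 20 had a negative difference, against 47.1% of all single-gene probe sets, and 2 were called (that of Atf5 and 1 of Vldlr). Probe sets of 1 gene read the same RNA and are not replicates. The 2 positive ones were the brightest of Cebpb and the dim one of Ddit3.

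**Figure D4:**
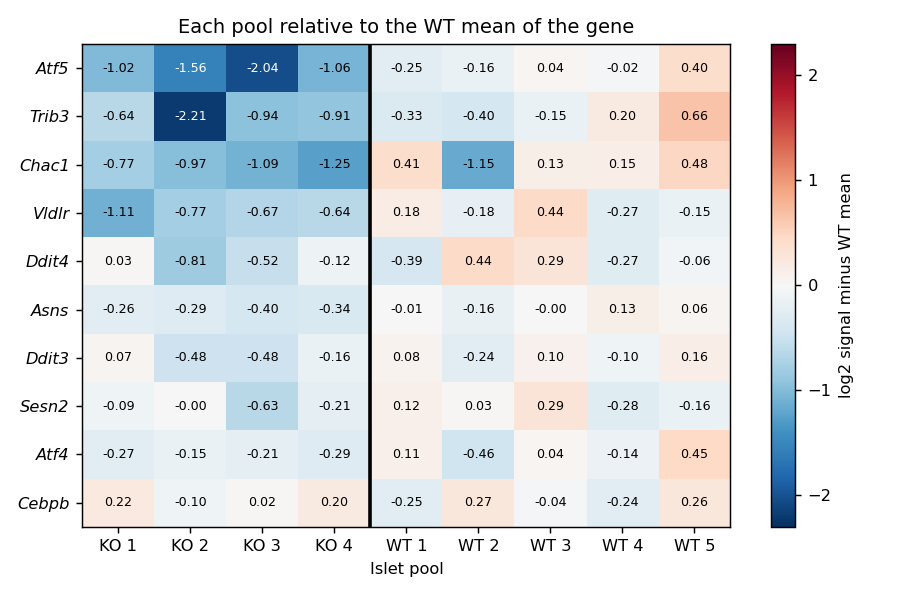
Log2 signal of each gene (rows) in each pool (columns, βRapKO left of the line) minus the WT mean of that gene, with the value in each cell. The Atf5, Trib3, Chac1, Vldlr and Asns rows are negative in all 4 βRapKO pools, from -0.26 in Asns to -2.21 in Trib3, and Chac1 in WT 2 stands at -1.15. The Atf4 row is also negative in all 4 βRapKO pools (-0.15 to -0.29), and the Sesn2 row runs from -0.00 to -0.63 in them.

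The order of the pools within a genotype differed between the genes. KO 1 was the highest βRapKO pool for 7 of the 10 genes but the lowest for Vldlr, KO 3 was the lowest for 4, and WT 5 was the highest WT pool for 5. To compare the pools within genotypes, the deviations of each gene from its group mean were set against those of Atf4 over the 9 arrays, which gave 9 relations. Chac1 was closest, with Pearson's r = 0.84 (exact permutation within groups p = 0.0233, adjusted over the 9 relations 0.209) and Spearman's rho = 0.67 (exact permutation p = 0.0708, adjusted 0.638). Without WT 2 and WT 5, the arrays farthest from the Atf4 median, r was 0.29, so the relation rested on those pools. None of the 9 relations passed after adjustment, and the adjusted exact permutation p for Pearson's r was 0.612 or more for the other 8. Over all genes tested, the deviations most like those of Atf4 belonged to Mycbpap (r = 0.97), Hs3st1 (r = 0.96) and Hey2 (r = 0.95), values that describe these 9 arrays and were the highest of many.

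The wider pathway was read from 8 lists of 102 genes, of which 91 were tested: 4 rose, 6 fell and 51 had a lower mean in βRapKO islets, with a median difference of -0.04. Over all genes tested 3.67% rose, 2.63% fell and 43.8% had a lower mean, so the share of these genes that rose was near that of all genes. Like the 10 genes, the lists were chosen with earlier results of these data known, so their shares may in part describe the choice. The cytosolic aminoacyl-tRNA synthetases, which charge tRNAs and are raised by ATF4 as a group, were the list most like the 10 genes in sign: 10 of 11 had a negative difference, with a median of -0.29, and 6 were lower at an unadjusted p under 0.05, against 43.8% and 8.43% of all genes. Gars, the glycyl-tRNA synthetase, was the 1 that fell after adjustment, against 2.63% of all genes. It read 11.81, 11.85, 11.77 and 11.73 in βRapKO pools, against 12.12, 12.36, 12.29, 12.26 and 12.36 in WT pools. The pools of each genotype lay close together and the groups were well apart, with a difference of -0.49 ± 0.08 SE (limma adjusted p = 0.0106), and the call held without any single pool. The composite element was found in 5 of the 8 synthetase genes with a window (62.5%), against 4.51% of all genes and 2.82% of tested genes with a window. In the other lists the share ran from 0.0% to 30.0%. The synthetases were listed as genes that ATF4 raises, so their share describes the choice. The element of Gars lay at bases -30 to -23 on the opposite strand (chr6:55037960-55037989, minus strand), shown with its flanks for comparison with the sites above.
Gars: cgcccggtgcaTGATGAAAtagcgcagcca

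Of 13 amino acid synthesis enzymes, 3 fell and 10 did not pass, with a list median of -0.07, against 2.63% of all genes that fell. Cth, which follows Cbs on the route to cysteine, was the 1 enzyme higher at an unadjusted p under 0.05, and was named after its value was seen. Its difference of 1.12 ± 0.42 SE did not pass after adjustment (limma adjusted p = 0.161). Cth was dim, with means of 6.67 ± 0.48 (SD) in βRapKO and 5.55 ± 0.83 (SD) in WT, and its groups overlapped. Mthfd2, the mitochondrial methylenetetrahydrofolate dehydrogenase, read 9.45, 9.57, 9.57 and 9.28 in βRapKO pools, against 10.24, 9.95, 10.23, 10.42 and 10.28 in WT pools. Its groups did not overlap, and the difference was -0.76 ± 0.11 SE (limma adjusted p = 0.00682). Aldh1l2, the mitochondrial 10-formyltetrahydrofolate dehydrogenase, read 9.48, 9.60, 9.27 and 9.72 in βRapKO pools, against 10.01, 10.21, 10.11, 10.59 and 10.25 in WT pools. It was lower in each βRapKO pool, by -0.72 ± 0.14 SE on average (limma adjusted p = 0.0206). Cbs, the cystathionine β-synthase that opens the route from homocysteine to cysteine, read 9.43, 9.64, 9.49 and 9.51 in βRapKO pools, against 10.27, 10.20, 10.43, 9.85 and 9.92 in WT pools. Here too the groups were apart, with a difference of -0.62 ± 0.13 SE (limma adjusted p = 0.0295). Aldh1l2 lost its call without KO 1 (adjusted p = 0.0658) or KO 3 (0.0613), and Cbs without any 1 of the βRapKO pools, WT 1 or WT 2 (0.0558 to 0.0898), whereas Mthfd2 kept it without any single pool. With all probe sets of a gene averaged, Cbs stood at -0.70 and lost its call (limma adjusted p = 0.242). Mthfd2 (0.0110) and Aldh1l2 (0.0432) kept theirs in that fit.

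Amino acid transporters did not move in 1 direction. Of 9 tested, 6 had a negative difference, against 43.8% of all genes, and the median was -0.08. At an unadjusted p under 0.05 (limma), 1 was lower and 2 were higher, against 8.43% and 13.3% of all genes. Slc1a5 (1.20) and Slc1a4 (-0.59), named after their values were seen, did not pass after adjustment (limma adjusted p = 0.107 and 0.0941). Slc7a3, a transporter of arginine and lysine, was the 1 that passed, and it rose, against 3.67% of all genes that rose. It read 7.51, 7.35, 7.93 and 7.87 in βRapKO pools, against 6.84, 7.06, 7.14, 7.09 and 6.66 in WT pools. Each βRapKO pool was above each WT pool, with a difference of 0.71 ± 0.16 SE (limma adjusted p = 0.0328). The call of Slc7a3 was lost without any 1 of KO 1, KO 3, KO 4, WT 1, WT 2, WT 4 and WT 5 (adjusted p from 0.0513 to 0.0845) and under either other scaling (0.0615 and 0.0745). An intensity trend in the variance also lost it (limma adjusted p = 0.0616).

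Of 15 eIF2α kinases, phosphatases and exchange factor subunits upstream of ATF4, none passed at an adjusted p under 0.05 (limma), and the median was -0.01. At an unadjusted p under 0.05, 1 was lower and 2 were higher, against 8.43% and 13.3% of all genes, so these counts were near those shares. The lowest p belonged to Eif2ak4, which encodes GCN2, the kinase that senses uncharged tRNA. It read 9.33, 9.18, 9.09 and 9.0 in βRapKO pools, against 8.62, 8.29, 8.95, 8.91 and 8.48 in WT pools. The βRapKO pools were higher without overlap, but the difference of 0.50 ± 0.15 SE had a limma adjusted p of 0.0901 and turned to -0.14 when all Eif2ak4 probe sets were averaged. Of 11 other bZIP factors and regulators, Cebpd, a C/EBP factor of acute responses, was the 1 that fell, against 2.63% of all genes. It read 11.17, 10.56, 10.44 and 10.46 in βRapKO pools, against 11.03, 11.39, 11.62, 11.55 and 11.35 in WT pools. KO 1 overlapped with the WT range and the other βRapKO pools lay below it, and the difference was -0.73 ± 0.18 SE (limma adjusted p = 0.0477). The call of Cebpd was lost without any single pool except KO 1 and WT 1 (adjusted p from 0.0758 to 0.124) and under either other scaling (0.0522 and 0.0718). Averaging the probe sets of Cebpd gave -0.78 and also lost the call (limma adjusted p = 0.245).

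Chaperones and sensors of the other unfolded protein response branches, which answer to IRE1 and ATF6 more than to ATF4, had mostly positive differences: 11 of 13, with a median of 0.24, against 56.2% of all genes. At an unadjusted p under 0.05, 7 were higher, against 13.3% of all genes, and 1 rose after adjustment, against 3.67%. That gene was Creld2, a secreted endoplasmic reticulum stress protein. It read 12.54, 12.70, 12.36 and 12.77 in βRapKO pools, against 11.39, 11.43, 11.62, 12.28 and 12.12 in WT pools. The βRapKO pools were higher, with WT 4 and WT 5 nearest to them, and the difference was 0.83 ± 0.21 SE (limma adjusted p = 0.0493). The call of Creld2 was lost without any single pool except WT 4 and WT 5 (adjusted p from 0.0780 to 0.118) and with median centring (0.113). The difference between this list and the 10 genes was not tested.

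Of 12 other stress targets, 1 rose and 1 fell, against 3.67% and 2.63% of all genes. Cdkn1a, the cell cycle inhibitor p21, read 11.22, 11.01, 11.13 and 11.33 in βRapKO pools, against 9.96, 10.30, 10.67, 10.32 and 10.31 in WT pools. The groups were apart, with a difference of 0.86 ± 0.14 SE (limma adjusted p = 0.00968). Vegfa, the vascular growth factor that beta cells secrete, read 11.59, 11.82, 11.88 and 11.42 in βRapKO pools, against 12.33, 12.16, 12.05, 12.19 and 12.12 in WT pools. It was lower without overlap, by -0.49 ± 0.11 SE (limma adjusted p = 0.0396). The call of Vegfa was lost without any single pool except KO 3 (adjusted p from 0.0511 to 0.112) and with quantile normalization (0.0763), whereas that of Cdkn1a held in each of these. With all probe sets of a gene averaged, Vegfa stood at -0.41 and was not called (limma adjusted p = 0.497). Cdkn1a stood at 1.03 there and was called (0.0137). Of 7 family relatives of the 10 genes, 1 rose, against 3.67% of all genes. That gene was Ddit4l, a relative of Ddit4 that also restrains mTORC1. It read 7.60, 7.91, 7.91 and 7.05 in βRapKO pools, against 6.65, 6.94, 6.77, 6.90 and 6.44 in WT pools. Its βRapKO pools were all higher, with KO 4 nearest to the WT range, and the difference was 0.88 ± 0.19 SE (limma adjusted p = 0.0322). The call of Ddit4l was lost without any single pool except KO 4 and WT 2 (adjusted p from 0.0509 to 0.0855). Averaging the probe sets of Ddit4l gave 0.83 and also lost the call (limma adjusted p = 0.108).

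**Figure D5:**
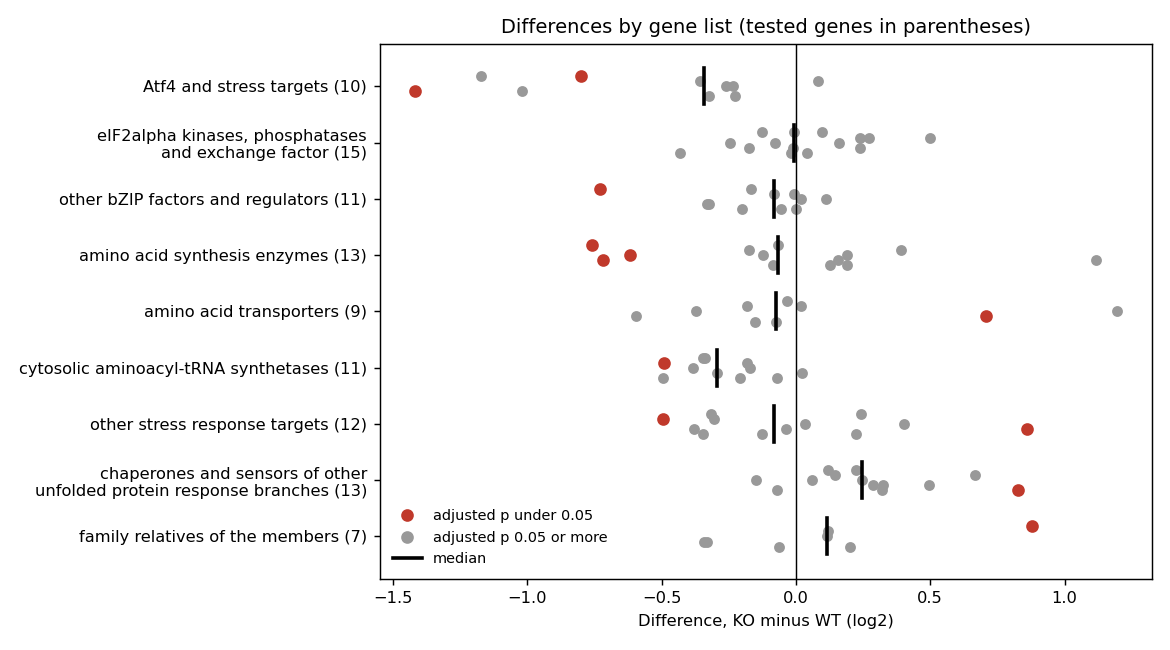
Difference between mean βRapKO and mean WT log2 signal (x axis) for each tested gene, by list (rows), with genes past an adjusted p of 0.05 in red and the list median as a black bar. The 10 genes (median -0.34) and the tRNA synthetases (median -0.29) lie mostly left of 0, and the chaperones (median 0.24) mostly right of it.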

How the data were processed

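Islet RNA of 4 βRapKO and 5 WT pools was labelled with a 3′ in vitro transcription kit. The authors deposited 1 log2 signal per probe set and array (45037 probe sets), and these values were used as they stand. For probe summarisation and scaling, the method is not given in the sources used here. On every array the trimmed mean of the linear signal was 497.1 to 497.7, array medians were 6.85 to 7.05, and 43 to 107 values per array lay at the floor. No read depth applies: the 9 arrays limit the precision. Probe sets were named by the platform annotation: 34945 had 1 gene symbol, 932 several and 9160 none, and only those with 1 were used. Correlations between arrays were 0.875 to 0.910.

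The brightest probe set of each gene by mean signal was kept, and the dimmest 0.25 of genes were left out. limma 3.58.1 (R 4.3.3; lmFit, eBayes, no covariate) was fitted over the 13644 genes, with Benjamini-Hochberg adjustment and a threshold of 0.05, after a check on simulated data. SEs and 95% intervals are moderated. Replicates are separate pools, which the study's methods describe as independent, each from 5 animals. Promoters came from RefSeq (GRCm38.p6). All 10 members were named, with up to 4 called genes of each pathway list by lowest p, or 1 gene by lowest p from a list without calls, Rptor, and the 3 genes most like Atf4. The members and lists were chosen with earlier results of these data known. Alternatives changed the probe set rule, the filter, scaling, floor, variance prior, test, replicate block and arrays used. A fit without _x_at probe sets was added after seeing the data.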

Additional observations from a re-analysis of the deposited data

Results flagged for a closer look

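In 42 groups of the named genes' values (KO and WT separately), 2 had 1 pool far from the others, and chance gives about 1 in 20 such groups. Chac1 in WT 2 was at 9.29, below the other 4 WT pools, with a gap of 0.783 of the group's range. Cebpd in KO 1 was at 11.17, above the other 3 βRapKO pools, with a gap of 0.831 of the range.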

How the results depend on the processing

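Atf5 was called in 18 of 19 alternatives (all but the replicate block) and Vldlr in 11. Among the 10 genes the count called, all lower, was 2, and it was 1 with no filter on dim genes, 4 with 0.5 of the genes left out as dim, 5 with an intensity trend and 0 with the replicate block. It was 1 to 3 when 1 array was left out, with 1 to 3 lower. In the pathway lists 10 were called (4 higher, 6 lower), against 4 (1 and 3) with probe sets averaged, 4 (1 and 3) with no filter, 17 (7 and 10) with the trend and 0 with the block. Higher calls there were 2 with median centring and 1 with the methods' t-test. Leaving out 1 array gave 4 to 7 (1 to 3 higher, 3 to 4 lower). Over all genes 860 were called (501 higher, 359 lower, 58.3% higher), against 317 (183 and 134) with probe sets averaged, 452 (239 and 213) with no filter, 474 (214 and 260, 45.1% higher) with median centring, and 375 to 802 (193 to 498 higher, 182 to 304 lower) with 1 array left out. Signs turned for Cebpb (-0.035) and Eif2ak4 (-0.14) with probe sets averaged. No alternative scaling moved the median of all genes by over 0.1.

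The labels do not say that shared replicate numbers pair the pools. Deviations of same-numbered βRapKO and WT pools correlated at -0.04, 0.09, 0.12 and -0.03. These 4 values cannot settle whether the pools were paired. With the replicate block, 61 genes were called (33 higher, 28 lower), the 10 genes gave 0 and the pathway lists 0, and the adjusted p of Atf5 was 0.0767 and that of Vldlr 0.106. WT 5 has no βRapKO pool of its number, so it did not bear on the differences in that fit. Atf5 stood at -1.32 there, the same as without WT 5. The block also added terms to a fit of few arrays. Of 4 βRapKO pools, those numbered 2 and 3 correlated best with their own number. Without _x_at probe sets Vldlr stood at -0.82 (adjusted p = 0.0361). With 9 arrays, adjusted p near 0.05 depends on each of them.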
